A study of Gallus gallus with 6 samples.

Results

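The genes described here are 7 members of the BAFF, TRAIL and NF-kB pathway, measured in wild-type chicken B cells and in cells with a knockout of IRF4, a transcription factor gene. They were taken as every array probe whose accession matched TNFSF13B, TNFRSF13B, TNFSF10, NFKBIA, TRAF5, TNIP2 or RIPK1, which gave 16 probes of the 43603 on the array, for 7 of the 4932 genes that could be named. All 16 were measured above the filter on dim probes, and 15 were well above background on all 6 arrays.

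The samples were of DT40, a B cell line from a chicken bursal lymphoma: 3 wild-type and 3 IRF4-deficient samples, all untreated, each on 1 one-colour array. Their titles number the replicates and do not say whether each was a separate culture. The comparison asks which transcripts differ between unstimulated wild-type and IRF4 knockout cells. How many knockout clones the samples came from is not stated. The p-values therefore measure only the spread between these samples and may not cover that between cultures or clones. In such bulk RNA, fewer cells that express a gene and less RNA per cell cannot be told apart. These arrays measure RNA and not protein, so a protein name below stands for the transcript of its gene.

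TNFSF13B encodes BAFF, a cytokine of the TNF family that keeps B cells alive. BAFF is bound by TACI, the product of TNFRSF13B, and by the BAFF receptor, the product of TNFRSF13C, and these receptors signal through TRAF adaptors to NF-kB. TNFSF10 encodes TRAIL, a ligand that starts caspase-driven death through death receptors, where RIPK1 acts as a kinase and scaffold between survival and death. NFKBIA encodes IkB-alpha, which holds NF-kB in the cytoplasm and is itself a target gene of NF-kB, and TNIP2 encodes a partner of TNFAIP3 that restrains the pathway. These roles are known mainly from human and mouse cells. No probe sequence was used here, so where on each transcript a probe lies is not stated.

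Between 62.4% and 68.2% of gene spots on an array were well above background, and no spot was saturated. Over the 28761 tested probes, r was 0.997 to 0.998 between arrays within a group and 0.939 to 0.940 between the groups. All 7 B cell markers with a probe (PAX5, CD79B, BTK, SYK, EBF1, CD72 and TNFRSF13C) were well above background on every array. So were 4 of 7 T cell markers with a probe (CD3E, CD3D, CD247 and CD8A), while CD4 and GATA3 were not well above background on any array. The summed signal of the T cell markers was 65.8 to 68.4 times the arrays' 75th percentile in wild type and 67.8 to 81.4 times in the knockout. Most of that sum was CD3D, whose mean went from 6.01 in wild type to 6.18 in the knockout on the log2 scale. The other detected T cell markers were lower in the knockout: CD3E (1.04 to -2.39), CD247 (-1.07 to -1.33) and CD8A (-3.19 to -4.32). The B cell markers summed to 83.0 to 90.6 times that percentile in wild type and 133 to 141 times in the knockout. Most of this rise was in CD72, whose mean went from 2.38 to 5.59 on the log2 scale. BTK (3.38 to 3.29) and TNFRSF13C (-3.12 to -3.71) were lower in the knockout. PAX5 (-2.74 to -2.50), CD79B (6.12 to 6.27), SYK (-0.26 to 0.30) and EBF1 (0.30 to 0.53) were higher. Of 4 myeloid markers with a probe, CD14 and CSF3R were not well above background on any array, and LYZ had no value on 1 knockout array. The 3 myeloid markers with a value on every array summed to 0.0266 to 0.0313 in wild type and 0.0615 to 0.0757 in the knockout. Of these 3, TLR4 alone was well above background, with means of -5.78 in wild type and -4.15 in the knockout on the log2 scale. That sum leaves out LYZ, which averaged -1.84 in wild type. With LYZ added where it had a value, the sum went the other way, from 0.297 to 0.321 in wild type to 0.0615 to 0.165 in the knockout. The value of 0.0615 is from the array without LYZ. The 3 fibroblast markers with a probe summed to 0.316 to 0.346 in wild type and 5.61 to 6.36 in the knockout. Most of this rise was in COL1A2, which went from -1.68 to 2.56 on the log2 scale. COL3A1 was dim (-6.56 to -5.84) and well above background on 2 wild-type and 3 knockout arrays. DCN was lower in the knockout (-7.22 to -7.76) and well above background on 0 wild-type arrays and 1 knockout array. The part of these markers in the results below was not tested. IRF4 itself fell on both of its probes: A_87_P037691 with a log2 fold change of -4.21 (SE 0.10, limma adjusted p = 4.1e-07), and A_87_P234013 to not well above background, which makes it at least 11.2-fold lower. With an alternative background correction (normexp) the fitted change of A_87_P234013 was -2.64, and that bound does not hold. On A_87_P037691 the knockout kept 5.39% of the wild-type signal, still well above background on all 3 arrays. The sources do not state the disrupted stretch of the gene, so these probes may lie outside it.

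Levels below are log2 signals relative to the 75th percentile of the same array, so that 0 is the 75th percentile. Changes are log2 fold changes, knockout minus wild type, with limma's standard error (SE) and adjusted p, and n = 3 in each group. By limma, 12 of the 16 probes were lower in the knockout and 4 higher, and the groups overlapped on 0 of the 16. This has to be read against the whole array, where 70.1% of tested probes were called, 29.6% lower and 40.5% higher, and the groups did not overlap in 75.5% of the probes with a value on all arrays. Changes of at least 2-fold were less frequent: 9 of the 16 probes were lower and 4 higher by that much, against 6.58% and 7.39% of all tested probes. Among the lower ones, A_87_P311262 of TNFSF13B passed the filter on dim probes through wild type alone. The 16 probes are not independent, since 5 genes have several, and the genes were chosen with earlier results of these data known. For each of them an exact permutation test, two-sided, gave p = 0.1, the smallest p that 3 arrays against 3 can give.

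**Figure D1:**
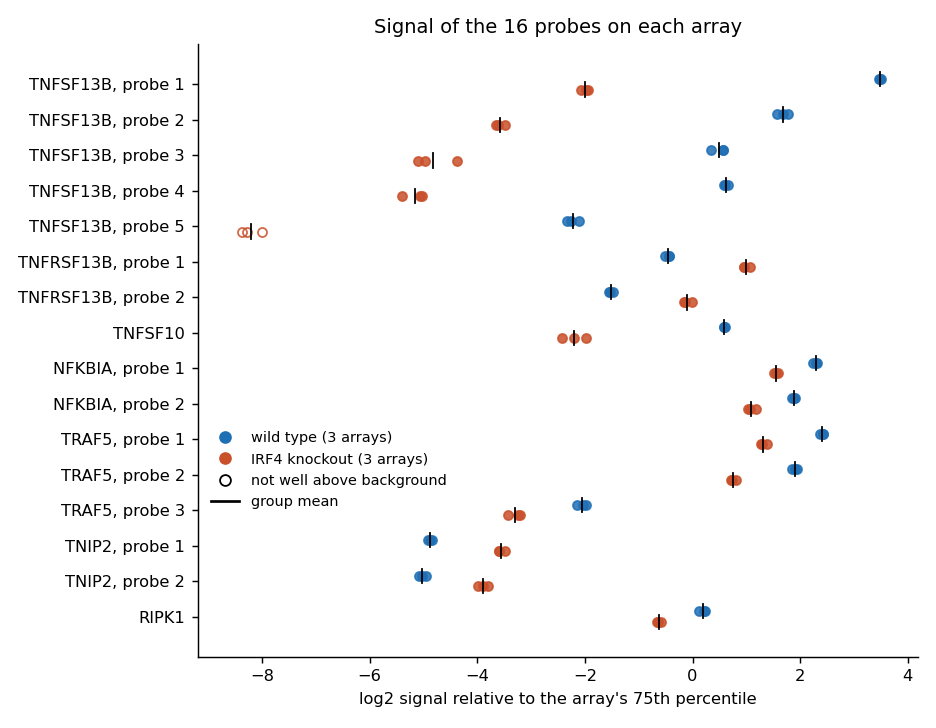
Log2 signal of each of the 16 probes relative to the array's 75th percentile (horizontal axis), with 1 point for each array and a vertical bar for the group mean. Wild-type and knockout points are apart for every probe, most widely for TNFSF13B; levels of different probes are not comparable with each other.

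The BAFF transcript lost nearly all of its signal in the knockout. On the first of its 5 probes (A_87_P035988) the level was 3.47, 3.51 and 3.48 on the wild-type arrays and -1.99, -1.95 and -2.07 on the knockout arrays. In the scanner's own units these were processed signals of 32870 to 35479 in wild type and 634 to 719 in the knockout, over a local background of 25 to 32. The knockout kept 2.23% of the wild-type signal, which is 44.9-fold lower (log2 fold change -5.49, SE 0.04, 95% confidence interval -5.60 to -5.38, limma adjusted p = 3.7e-08). No knockout array came near a wild-type array, and the remaining signal was well above background on all 3.

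The other TNFSF13B probes gave the same direction. A_87_P110528 stood at 1.57, 1.78 and 1.68 in wild type and at -3.65, -3.61 and -3.48 in the knockout, a change of -5.26 (SE 0.07). A_87_P133113 stood at 0.61, 0.66 and 0.59 in wild type and at -5.02, -5.07 and -5.40 in the knockout, a change of -5.78 (SE 0.10). A_87_P239248 stood at 0.34, 0.57 and 0.58 in wild type and at -5.10, -4.37 and -4.98 in the knockout, where replicate 2 lay above the others. Its change of -5.31 therefore had the widest error of the 5 (SE 0.20, 95% confidence interval -5.79 to -4.83). A_87_P311262 (-2.33, -2.10 and -2.25 in wild type) was on none of the knockout arrays well above background and read there -8.28, -8.00 and -8.36, so its signal was at least 20.8-fold lower. That bound takes the wild-type mean of -2.23 and, for the knockout, replaces each array's reading by the dimmest signal that was well above background there, where this exceeded the probe's reading. The fitted change of A_87_P311262, -5.99, became -3.05 with normexp background correction, under which the bound does not hold. Adjusted p for A_87_P110528, A_87_P133113 and A_87_P239248 lay between 9.9e-08 and 2.7e-06 in limma. A_87_P311262 passed the filter on dim probes through wild type alone, so no p is given for it.

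The 4 TNFSF13B probes detected in both groups ranked 84th to 122nd from the lowest among the fold changes of all 28761 tested probes, counting fitted values of probes at background. Their changes ranged from 38.3-fold to 55.1-fold lower. A fit of the difference between probes of the same gene was run over 7928 pairs of probes, of which 15.5% were called. Of the 6 pairs among these 4 probes, A_87_P035988 and A_87_P133113 differed by 0.29 (SE 0.08, limma adjusted p = 0.047), the only one past the threshold. That difference missed the threshold without wild-type replicate 1, 2 or 3 or knockout replicate 2 (adjusted p of 0.091 to 0.13) and with the replicate number as a block (adjusted p = 0.065), and turned to -0.60 with normexp background correction. The other 5 pairs differed by 0.05 to 0.53 in size, with adjusted p of 0.052 to 0.89. Of these, A_87_P110528 and A_87_P133113 passed the threshold without knockout replicate 1 or 3 (adjusted p = 0.044 and 0.023), A_87_P133113 and A_87_P239248 without knockout replicate 1 (0.018), and A_87_P110528 and A_87_P239248 without knockout replicate 2 (0.032). With normexp, A_87_P035988 minus A_87_P110528 was -0.47 (adjusted p = 0.0042) and A_87_P035988 minus A_87_P239248 was -0.64 (adjusted p = 0.0028).

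Within slide 1 and slide 2, each of which held 1 array of both groups, the change on A_87_P035988 was -5.46 and -5.46, and a fixed slide term in the fit gave -5.46. The fixed slide term rests on slide 1 and slide 2 alone, since replicate 3 of each group was by itself on another slide. Its value for a probe is therefore the mean of the within-slide changes, here and below, and no further check of their size. The other tested genes of the chromosome of TNFSF13B on the GRCg7b assembly had a median change of 0.10 (542 genes), and 4 of them had a lower fitted value than TNFSF13B. Normexp with an offset, which by construction compresses dim signals, moved the change of A_87_P035988 to -5.30, of A_87_P110528 to -4.82, of A_87_P239248 to -4.66 and of A_87_P133113 to -4.70. All stayed past the threshold.

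**Figure D2:**
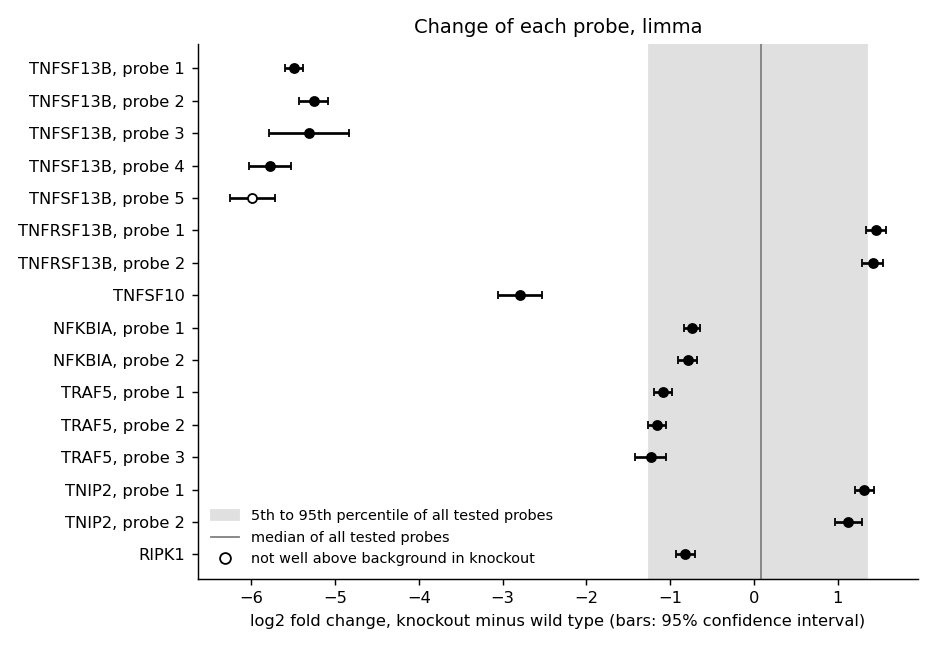
Log2 fold change of each of the 16 probes with its 95% confidence interval from limma (horizontal axis), over a grey band for the 5th to 95th percentile (-1.25 to 1.35) and a line for the median (0.08) of all 28761 tested probes. The TNFSF13B probes and the TNFSF10 probe lie far left of the band, TNFRSF13B just right of its edge, and NFKBIA, TRAF5, TNIP2 and RIPK1 inside it.

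The TRAIL transcript also fell, with more scatter in the knockout. The probe of TNFSF10 (A_87_P053551) stood at 0.58, 0.59 and 0.60 on the wild-type arrays and at -1.99, -2.42 and -2.21 on the knockout arrays. The standard deviation was thus 0.01 in wild type and 0.22 in the knockout, and both groups were well above background on all arrays. The signal was 6.94-fold lower (log2 fold change -2.80, SE 0.11, 95% confidence interval -3.06 to -2.53, limma adjusted p = 3.1e-06). Within slide 1 the change was -2.57 and within slide 2 it was -3.01, and the fixed slide term gave -2.79.

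TNFSF10 lies on a chromosome whose other genes were lower as well. Their median change was -0.65 over 101 tested genes, against 0.05 over all 3836 tested genes with names, and 3 of the 101 had a lower fitted value than TNFSF10. With the chromosome's median over tested probes subtracted, the change of TNFSF10 was -2.14 and stayed past the threshold. Because the array holds 1 named probe for it, no other probe was available to set beside this one.

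The transcript of TACI, a receptor for BAFF, moved the opposite way. On A_87_P056096, TNFRSF13B stood at -0.44, -0.43 and -0.52 in wild type and at 0.96, 1.06 and 0.96 in the knockout. Its signal was 2.75-fold higher (log2 fold change 1.46, SE 0.05, 95% confidence interval 1.34 to 1.57, limma adjusted p = 1.6e-06). The second probe, A_87_P141588, stood at -1.55, -1.48 and -1.54 in wild type and at -0.14, -0.01 and -0.15 in the knockout, 2.67-fold higher (1.42, SE 0.05, limma adjusted p = 2.4e-06). Both probes separated the groups by far more than the spread within them.

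The changes on the 2 TNFRSF13B probes differed by 0.04, with a 95% confidence interval of -0.06 to 0.14. Within the slides the change on A_87_P056096 was 1.40 and 1.50, and the fixed slide term gave 1.45. Among the 91 other tested genes of its chromosome, with a median change of 0.07, 2 had a larger rise than TNFRSF13B. The receptor gene TNFRSF13C, which encodes the BAFF receptor, went down instead: -3.12 ± 0.04 (SD, n = 3) in wild type and -3.71 ± 0.03 (SD, n = 3) in the knockout, 1.51-fold lower (log2 fold change -0.59, SE 0.04, limma adjusted p = 3.0e-05). Its other probe gave -0.46. No probe matched TNFRSF17, the gene of the other receptor for BAFF, which is not analysed here.

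The transcripts of IkB-alpha and of the adaptor TRAF5 fell moderately. NFKBIA stood at 2.32, 2.25 and 2.30 in wild type and at 1.59, 1.56 and 1.51 in the knockout on A_87_P053679, 1.67-fold lower (log2 fold change -0.74, SE 0.04, limma adjusted p = 1.3e-05). On A_87_P286559 it stood at 1.89, 1.86 and 1.90 in wild type and at 1.17, 1.03 and 1.06 in the knockout, 1.73-fold lower (-0.79, SE 0.05, limma adjusted p = 2.2e-05). The change on the first probe was -0.73 and -0.69 within the slides and -0.71 with the fixed slide term. The 296 other tested genes of the chromosome of NFKBIA had a median change of 0.09, and 27 of them were lower than NFKBIA.

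TRAF5, which links TNF receptor family members to NF-kB, fell on all 3 of its probes. A_87_P036455 stood at 2.42, 2.36 and 2.42 in wild type and at 1.28, 1.38 and 1.27 in the knockout, 2.13-fold lower (log2 fold change -1.09, SE 0.04, limma adjusted p = 4.3e-06). A_87_P251623 stood at 1.94, 1.91 and 1.85 in wild type and at 0.80, 0.73 and 0.71 in the knockout, 2.23-fold lower (-1.15, SE 0.04). A_87_P097851 stood at -2.04, -1.99 and -2.14 in wild type and at -3.21, -3.24 and -3.43 in the knockout, 2.35-fold lower (-1.23, SE 0.07). The 3 pairwise differences between these changes were 0.07 to 0.15 in size, with limma adjusted p of 0.27 to 0.53.

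The within-slide changes on A_87_P036455 of TRAF5 were -1.14 and -0.98, and the fixed slide term gave -1.06. The 306 other tested genes of the chromosome of TRAF5 had a median change of -0.38, and 31 of them were lower than TRAF5. With the chromosome's median over tested probes subtracted, the changes on the TRAF5 probes were -0.71, -0.78 and -0.86, all still past the threshold.

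RIPK1 fell on its only probe. A_87_P038086 stood at 0.12, 0.23 and 0.22 in wild type and at -0.58, -0.66 and -0.65 in the knockout, 1.76-fold lower (log2 fold change -0.82, SE 0.05, 95% confidence interval -0.93 to -0.71, limma adjusted p = 1.5e-05). The change was -0.71 and -0.89 within the slides and -0.80 with the fixed slide term. RIPK1 shares its chromosome with IRF4, and the 336 other tested genes there had a median change of -0.42, with 73 of them lower than RIPK1. Subtracting the chromosome's median over tested probes left -0.40 (limma adjusted p = 0.00022), still past the threshold.

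TNIP2 rose in the knockout on both of its probes. A_87_P051101 stood at -4.91, -4.85 and -4.87 in wild type and at -3.59, -3.48 and -3.60 in the knockout, 2.49-fold higher (log2 fold change 1.32, SE 0.05, limma adjusted p = 2.4e-06). A_87_P035574 stood at -5.03, -4.95 and -5.09 in wild type and at -3.99, -3.80 and -3.89 in the knockout, 2.19-fold higher (1.13, SE 0.06, limma adjusted p = 1.6e-05). The scanner's processed signals on the first probe were 99.1 to 108 in wild type and 220 to 245 in the knockout, over a local background of 23 to 31, so both groups were measured in the lower part of the range.

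The changes on both TNIP2 probes differed by 0.19, which missed the threshold (limma adjusted p = 0.055) and passed it with normexp (0.031). The change on A_87_P051101 was 1.32 and 1.37 within the slides and 1.34 with the fixed slide term. With normexp background correction it was 0.90, and that on A_87_P035574 was 0.70, in each case still past the threshold. The 256 other tested genes of the chromosome had a median change of 0.10, and 11 rose by more than TNIP2.

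**Figure D3:**
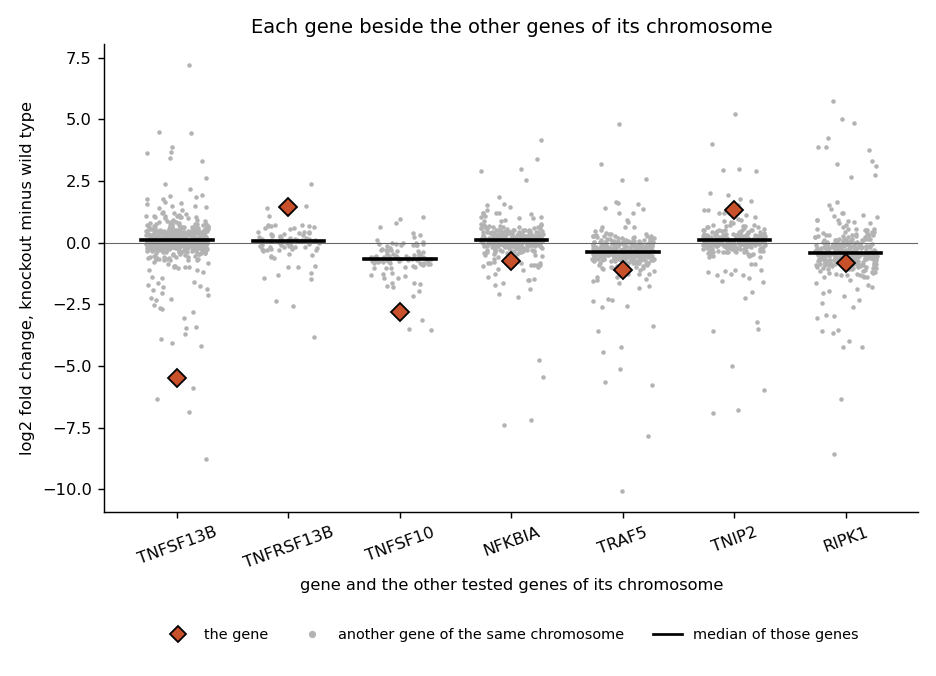
Log2 fold change (vertical axis) of each of the 7 genes, as a diamond, beside the other tested genes of its chromosome on the GRCg7b assembly, as grey points with a line at their median; points are brightest probes, and values of genes at background in a group are fitted. The medians are -0.65 for the chromosome of TNFSF10, -0.38 for that of TRAF5 and -0.42 for that of RIPK1, and between 0.07 and 0.10 for the other 4.

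Around these genes, a list of 87 genes of the TNF family and the NF-kB pathway was examined by role, with each gene represented by its brightest tested probe. Of these, 47 had a probe that could be named and 38 were tested, and by limma 13 were higher, 18 lower and 7 not called, with a median change of -0.13. The corresponding shares over all 3836 named genes tested were 70.3% called, 38.5% upward and 31.8% downward, around a median of 0.05. Leaving out the 7 genes, 11 of 31 were higher and 13 lower, with a median of -0.01, and at least 2-fold changes numbered 2 higher and 0 lower, against 6.33% and 7.06% of all named genes. RIPK2, at background in wild type, is among those higher.

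Among the ligands, TNFSF8, TNFSF11, TNFSF15, CD40LG and FASLG were not well above background on all arrays of either group, so TNFSF13B and TNFSF10 were the 2 that could be tested. Of 11 tested receptors 2 rose, 4 fell and 5 were not called, against 38.5% higher and 31.8% lower of all named genes tested. TNFRSF21, a death-domain receptor, fell 1.87-fold (-0.90, SE 0.07), with -0.90 and -0.45 on its other probes. It lies on the chromosome of TRAF5, and with that chromosome's median over tested probes subtracted its change was -0.53, still past the threshold. TNFRSF18 fell 1.85-fold (-0.89, SE 0.13). CD40, the receptor for the T cell ligand CD40LG, was 1.19-fold higher (0.25, SE 0.09, limma adjusted p = 0.042). That call was lost in 11 of 17 other settings, with adjusted p up to 0.21. TNFRSF10B, a receptor for TRAIL, differed by 0.38 with an SE of 0.21 (limma adjusted p = 0.15), and passed the threshold without IRF4 knockout replicate 2.

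The adaptors and kinases close to the receptors divided into 5 higher, 2 lower and 1 not called of 8 tested. Over all named genes tested, 38.5% were higher and 31.8% lower. RIPK2, a kinase below NOD receptors, was in wild type not well above background (-8.72 ± 0.45, SD, n = 3). It stood at -4.86 ± 0.11 (SD, n = 3) in the knockout, at least 3.31-fold higher. With normexp its fitted change was 1.53, below that bound. RIPK2 passed the filter on dim probes through the knockout alone. Its place among the 5 higher thus rests on a fit against background readings. BCL10, which carries antigen receptor signals to NF-kB, rose 2.14-fold (1.10, SE 0.06). TRAF7 rose 1.64-fold (0.71, SE 0.05), and BIRC2, a ubiquitin ligase of the TRAF complexes, rose on all 7 of its probes, by 0.33 to 1.02. The lower members were TRAF5 and RIPK1, and FADD, the adaptor of death receptors, differed by 0.12 (SE 0.05, limma adjusted p = 0.059), a call gained with normexp and without IRF4 knockout replicate 3.

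Of the IKK kinases and those upstream, 3 of 4 tested genes rose slightly and none fell. With 70.3% of all named genes called, 38.5% upward, so small a count says little about this role. TAB1 rose by 0.40 (SE 0.05), CHUK, which encodes IKK-alpha, by 0.21 (SE 0.04, limma adjusted p = 0.0033) and MAP3K14, the NF-kB-inducing kinase below the BAFF receptor, by 0.17 (SE 0.04, limma adjusted p = 0.0059). The second CHUK probe gave 0.15 (adjusted p = 0.087), and the second MAP3K14 probe gave -0.09 (adjusted p = 0.17). TBK1, the gene not called, changed by 0.07 on its brightest probe (limma adjusted p = 0.28). Its other probes gave 0.43 (adjusted p = 0.00038) and 0.06 (adjusted p = 0.67). The calls of CHUK and MAP3K14 were lost with the fixed slide term (adjusted p = 0.083 and 0.098) and with the chromosome median subtracted, and that of MAP3K14 also with array medians subtracted (0.08, adjusted p = 0.13).

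All 3 tested NF-kB subunit genes were lower in the knockout, each by less than 2-fold, where 31.8% of all named genes tested were called lower. REL, the subunit c-Rel of B cells, fell 1.44-fold (-0.52, SE 0.04, limma adjusted p = 3.2e-05) and by 0.72 on its other probe. It lies on the chromosome of TRAF5 too, and the subtraction left -0.15 (limma adjusted p = 0.0071). NFKB1 fell 1.23-fold (-0.29, SE 0.06, limma adjusted p = 0.0037) and by 0.41 on its other probe. NFKB2 was 1.24-fold lower (-0.31, SE 0.06, limma adjusted p = 0.0038) on its brightest probe, while its other tested probe gave 0.12 (SE 0.07, adjusted p = 0.16).

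The 4 tested genes listed under inhibitors of NF-kB divided into 3 lower and 1 higher, against 31.8% and 38.5% of all named genes tested. Whether each of them inhibits NF-kB in these cells was not tested. Beside NFKBIA, NFKBIZ was 1.31-fold lower (-0.39, SE 0.08, limma adjusted p = 0.0043) and NFKBIE 1.20-fold lower (-0.27, SE 0.06, limma adjusted p = 0.0097), while TNIP2 was the 1 that rose. NFKBIE lies on the chromosome of TRAF5 as well, and with that chromosome's median subtracted its change was 0.11 (adjusted p = 0.16), while the fixed slide term gave -0.24 (adjusted p = 0.059). Among the effectors of death receptors 4 of 6 fell and 2 rose, beside the same shares of all named genes. CASP6 was 1.29-fold lower (-0.37, SE 0.04) and CFLAR, which blocks caspase-8, 1.27-fold lower (-0.35, SE 0.05).

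CASP8, the caspase that TRAIL receptors activate, was slightly lower (-0.14, SE 0.05, limma adjusted p = 0.037), a call lost in 8 of 17 other settings, among them the omission of any 1 array except knockout replicate 2 (adjusted p of 0.071 to 0.10). It was -0.23 with array medians subtracted and -0.25 with the chromosome median subtracted, both past the threshold. Its other probe gave -0.15 (adjusted p = 0.011). DFFB, the nuclease that cuts DNA in dying cells, rose 1.68-fold (0.75, SE 0.04). BID, which links caspase-8 to mitochondria, rose 1.32-fold (0.40, SE 0.05) on its brightest probe and gave -0.12 (adjusted p = 0.13) on the other. TRAF2, TRAF3, TRAF6, IKBKB, RELA, RELB, TNFAIP3, TNIP1 and MALT1 were matched by no probe accession, so they were not analysed here.

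**Figure D4:**
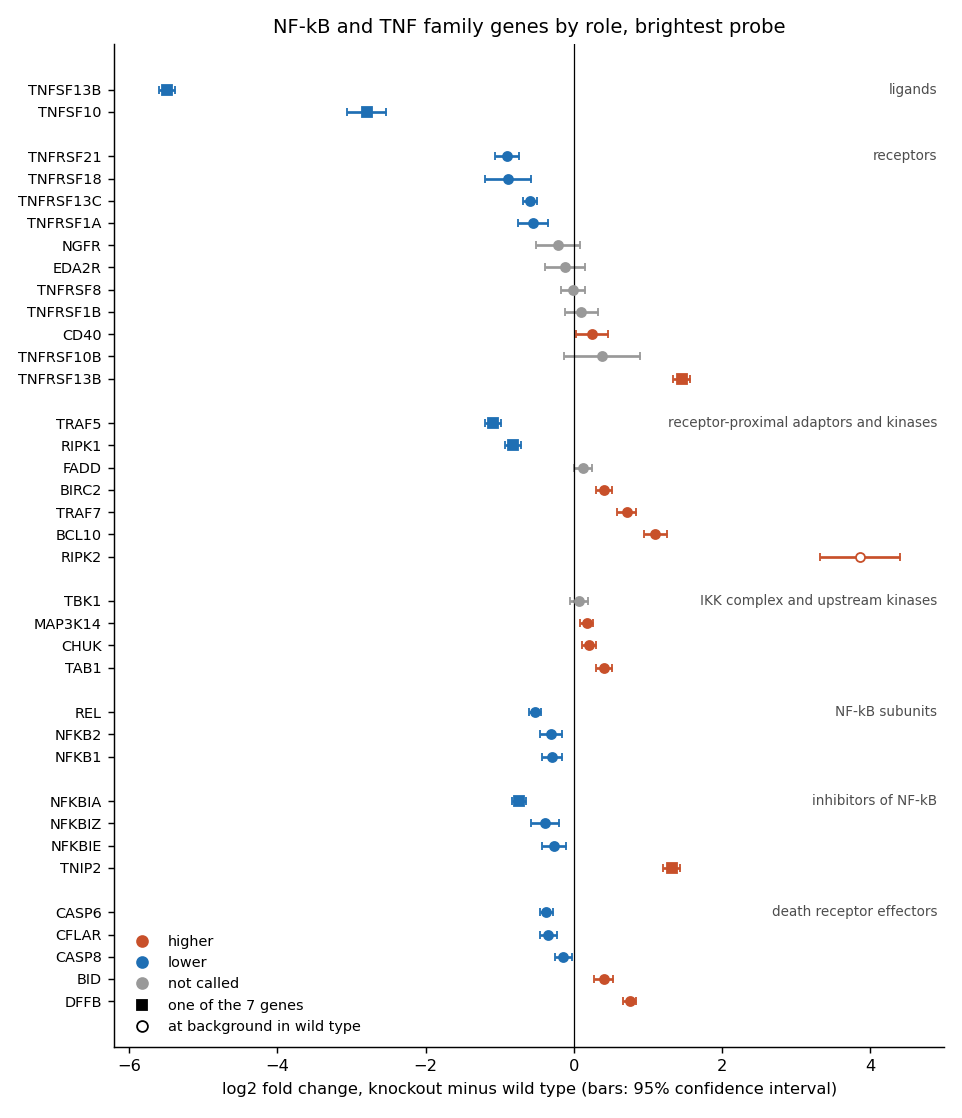
Log2 fold change with its 95% confidence interval (horizontal axis) for 36 of the 38 tested genes of the list, grouped by role, with squares for the 7 genes and an open symbol for RIPK2, which was at background in wild type. Among these 36, TNFSF13B and TNFSF10 lie farthest left, and the genes outside the 7 fall by less than 1 log2 unit where they fall.

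The genes whose profile over the 6 arrays was closest to those of 4 of the 7 were found by the root mean square distance between log2 profiles, each centred on its own mean, among 3785 candidate genes. For TNFSF13B these were PRKCH, a protein kinase C gene (distance 0.11, change -5.44), IGFBP2, an insulin-like growth factor binding protein gene (0.15, -5.63), and MOXD1 (0.20, -5.75). PRKCH stood at -0.29, -0.30 and -0.21 in wild type and at -5.49, -5.72 and -5.92 in the knockout. For TNFSF10 they were P4HA2, a collagen prolyl hydroxylase gene (0.07, -2.77), the ATP-gated channel gene P2RX7 (0.09, -2.93) and the adhesion gene ALCAM (0.12), which no knockout array measured well above background and which was at least 1.75-fold lower. With normexp the changes were -4.35 for PRKCH, -4.65 for IGFBP2, -2.66 for P4HA2, -2.12 for P2RX7 and -0.64 for ALCAM. The bound for ALCAM does not hold under that correction. MOXD1 ranged from -5.88 to -5.38 over the other settings.

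For TNFRSF13B the closest profiles were those of ZFP92 (distance 0.03, change 1.46), the nuclear receptor gene HNF4beta (0.05, 1.43) and the phospholipase gene PLA2G10 (0.06, 1.40). For TNIP2 they were PDE6G (0.044, 1.28), the importin gene KPNA6 (0.045, 1.24) and the heme transporter gene SLC48A1 (0.046, 1.35). With normexp the changes of HNF4beta and PLA2G10 were 0.86 and 0.94, and that of PDE6G was 1.30. The change of KPNA6 was 0.72 with its chromosome's median subtracted. Over the other settings, ZFP92 ranged from 1.35 to 1.49 and SLC48A1 from 1.23 to 1.38. With 2 groups of 3 arrays, this distance mostly ranks genes by how close their change is.

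**Figure D5:**
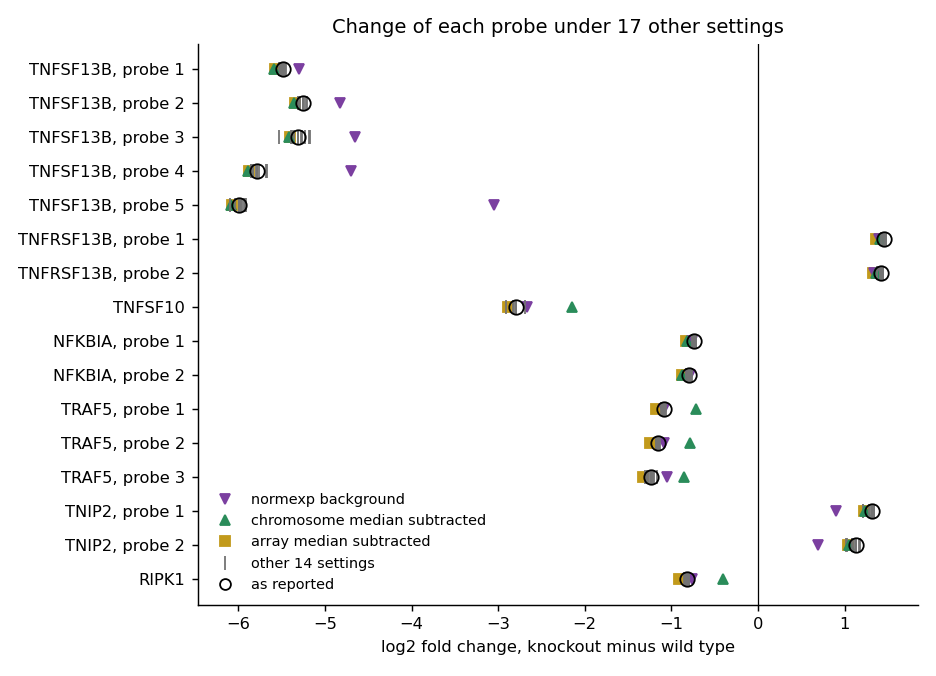
Log2 fold change of each of the 16 probes (horizontal axis) as reported, as an open circle, and under 17 other settings of the fit. Settings that changed only the error estimate or the filter lie on the reported value by construction. Every symbol stays on the same side of 0 as the reported value; normexp moves the dim TNFSF13B and TNIP2 probes towards 0 (to -3.05 for A_87_P311262), and subtracting the chromosome median does so for TNFSF10, TRAF5 and RIPK1.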

How the data were processed

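Total RNA of 6 DT40 samples (3 wild type, 3 IRF4-deficient) was hybridised to one-colour Agilent chicken arrays. Per the labels' protocols the dye was Cy3, while their label field gives biotin; the green channel was used. The deposited intensity values were the processed green signals, background-subtracted and not scaled between arrays, which the authors extracted using Agilent Feature Extraction, version 10.7.1.1, per the file headers; the other deposited columns used were median and background signals and quality flags. Limma and R 2.12.0 appear in the submitters' processing notes. The authors' processed table, with equal intensity medians (225.7) in all columns, served as an alternative.

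Log2 signals minus each array's 75th percentile were averaged over spots of a probe, without control and outlier spots. A probe was tested if well above background on all 3 arrays of a group. Limma 3.58.1 in R 4.3.3 (lmFit, eBayes, group only, two-sided) compared 28761 probes, and a call needed p under 0.05 after Benjamini-Hochberg adjustment over these; the fit was tested on simulated data. A chromosome, of GRCg7b in RefSeq, served only to group genes. Where its median was subtracted, that median was taken over all tested probes of the other genes on the chromosome. The chromosome medians printed with numbers of genes are over brightest probes. Accessions named 10691 probes. The genes and lists were chosen with earlier results of these data known. Named genes were the 7, IRF4, 22 core pathway genes, the 6 largest rises and 6 largest falls of the list, and the 3 closest profiles of 4 genes. Results for a few of the listed genes are not reported here. A planned search of promoters for motifs was not run, since no promoter sequence was used here, and the normexp alternative used median in place of mean signals. The number of arrays limits precision.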

Additional observations from a re-analysis of the deposited data

How the results depend on the processing

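All 272 values of the 16 probes of the 7 genes under the 17 other fits kept their direction and stayed past the threshold, with limma adjusted p up to 0.0052. They include the fitted values of A_87_P311262, which was at background in the knockout. The 17 fits are not independent checks of direction. Without the filter on dim probes, with the replicate block or with a trended, robust variance, these changes equalled the reported ones by construction. Counts of these probes stayed at 4 higher and 12 lower without any 1 array, and those of the pathway list at 12 to 13 higher and 17 to 18 lower. Within slides, values that moved by more than 1 SD were 1.40 for TNFRSF13B (slide 1), -2.57 and -3.01 for TNFSF10, -0.69 for NFKBIA (slide 2), -1.14 and -0.98 for TRAF5, and -0.71 and -0.89 for RIPK1. On second and later probes they were -5.39 and -4.94 (slide 2) and -5.63 (slide 1) for TNFSF13B A_87_P110528, A_87_P239248 and A_87_P133113, -0.71 for NFKBIA A_87_P286559 and 1.03 for TNIP2 A_87_P035574 (both slide 1). For all probes, 11635 were higher and 8523 lower (57.7% of calls higher), which became 9275 and 10275 (47.4% higher) with array medians subtracted, where the median change of all probes went from 0.08 to -0.01. With chromosome medians subtracted 2806 were higher and 2854 lower, of the 8281 placed probes alone. Pairs of probes of 1 gene that differed numbered 1231, and 796 to 996 without 1 array, fewest without wild-type replicate 3.

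With normexp, which compresses dim signals by construction, differences between TNFSF13B probes turned: A_87_P035988 minus A_87_P133113 to -0.60, and the pairs with A_87_P311262, at background in the knockout, to -2.25, -1.77, -1.65 and -1.61. NFKBIE turned to 0.11 with its chromosome's median subtracted. For the 43 other named genes, 699 of 731 values kept their call. Same-numbered samples showed no shared deviation from their group means (r of -0.012 to -0.0084). With 3 arrays in each group this cannot show whether the samples were handled in pairs. With the replicate block 11104 probes were higher and 8170 lower, and no probe of the 7 genes changed its call. As each replicate number was in both groups, this block could change only the SE and p of these probes. Their fold changes stayed as reported by construction (TNFSF13B A_87_P035988 at -5.49, TNFSF10 at -2.80).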
